A study of Mus musculus with 8 samples.

Results

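The long noncoding RNA genes Malat1, Meg3, Neat1, Rian, Mirg, Miat, Snhg11 and Rmst, 8 of the 38924 genes in each count table, were followed through ribosome pull-downs from embryonic mouse neurons. They were chosen by name with their counts in dopamine and serotonin libraries known, among which Malat1 and Meg3 had been seen to be higher in every dopamine library. Their values in that contrast are therefore a description, given with no test. The contrasts among the dopamine libraries were not used in the choice and are tested.

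The series sequenced RNA from bacTRAP mice, whose transgene puts a tag on the ribosomes of 1 cell type, so that the RNA they carry can be captured from whole tissue. The design text names a line for the dopamine transporter (Slc6a3) and a line for the serotonin transporter (SLC6A4). Of the 8 libraries, 6 came from midbrain (datL, n = 2, datM, n = 2, Lateral, n = 1, and Medial, n = 1) and 2 from hindbrain serotonin neurons. The titles of Lateral and Medial say midbrain dopamine neurons, those of datL and datM only midbrain neurons. All 6 are called dopamine libraries here. Dissection was at embryonic day 15 (E15), and tissue called E18 was midbrain taken at that same age and cultured for 3 days. All groups carry a bacTRAP transgene. Strain background, and whether replicates came from separate litters, were not given in the sources used here, so the p-values cover the spread among libraries, which may be technical. Every library's description names the Slc6a3 line, the serotonin libraries included, so groups follow the titles. The letters L and M are not explained in the labels.

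Long noncoding RNAs are transcripts without a long reading frame, and several of the best known stay in the nucleus. Malat1 gathers in nuclear speckles, where splicing factors are stored, and Neat1 is the scaffold of paraspeckles, another nuclear body. Meg3, Rian and Mirg are made from the maternal chromosome of the imprinted Dlk1-Dio3 locus and hold clusters of small nucleolar RNAs and microRNAs. Miat binds splicing factors, Snhg11 is a host gene of small nucleolar RNAs that is active in neurons, and Rmst is a partner of the transcription factor Sox2 in the making of neurons. A ribosome pull-down is meant to enrich RNA under translation, so RNAs of this kind enter it by routes the count tables do not record.

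The libraries held 22417739 to 33216710 counts. The file headers place datL and datM in an October run folder, and serotonin, Lateral and Medial in lane 8, with Lateral and Medial also marked E18. This header mark therefore goes with the split between datL or datM and Lateral or Medial. A dopamine to serotonin contrast under the same mark exists only in lane 8. A lane number alone does not show that these libraries shared a run. Neuron type, brain region and transgenic line also move together and cannot be told apart, and within lane 8 the E18 mark moves with them. The October libraries detected 11708 to 12509 genes and the lane 8 libraries 13703 to 15656. As a check of the labels, Slc6a3 lay between 31.85 and 739.5 CPM (counts scaled by the library total) in dopamine libraries and at 0.1715 and 0.6787 CPM in serotonin libraries. Slc6a4 was at 1196 and 1075 CPM in serotonin libraries and at 0 to 5.268 CPM in dopamine libraries. Pitx3 and Lmx1b, 2 transcription factors of midbrain dopamine neurons, were under 1 CPM in 5 of the 6 dopamine libraries. Of 12 dopamine neuron markers, 7 were above both serotonin libraries in every dopamine library, and 2, Slc18a2 and Ddc, were below both. The 12 summed to 540.9 (datL replicate 1) to 3033 CPM in dopamine libraries and to 1290 and 1088 CPM in serotonin libraries. Tph2 was at 16.8 CPM in Lateral, 41.49 CPM in Medial, and 2909.5 and 2188.9 CPM in serotonin.

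On the mm10 build the members lie on 5 chromosomes. Malat1 (chr19:5795690-5802672) and Neat1 (chr19:5824708-5845478) are neighbours on the minus strand. Meg3 (chr12:109541001-109571726), Rian (chr12:109603940-109661716) and Mirg (chr12:109729764-109749460) follow each other on the plus strand. Miat (chr5:112213228-112229395) and Rmst (chr10:92071037-92165170) are on the minus strand, and Snhg11 (chr2:158375638-158386145) is on the plus strand. GENCODE M21 types 6 of them as lincRNA, Rian as processed transcript and Snhg11 as protein coding. Their exons span 6940 bases (Rmst) to 20771 bases (Neat1).

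The members of the Dlk1-Dio3 locus are known mostly for the small RNAs they hold. Within members and on their strand lay 21 microRNA genes, 13 of them in Mirg, 4 in Rian, 2 in Meg3 and 2 in Rmst, and all 21 had 0 counts in the 8 libraries together. Of these genes, 6 lie wholly inside an exon, so that a read crossing them would also cross the host RNA whose level is reported here. Their 10 mature sequences, from RefSeq on GRCm38.p6, are shown for that reason, with the seed (bases 2 to 8) in capitals.
mmu-miR-1906: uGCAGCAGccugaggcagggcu
mmu-miR-770-5p: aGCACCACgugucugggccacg
mmu-miR-770-3p: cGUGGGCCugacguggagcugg
mmu-miR-134-5p: uGUGACUGguugaccagagggg
mmu-miR-134-3p: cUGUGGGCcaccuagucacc
mmu-miR-485-3p: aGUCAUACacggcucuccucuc
mmu-miR-377-5p: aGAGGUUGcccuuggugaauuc
mmu-miR-377-3p: aUCACACAaaggcaacuuuugu
mmu-miR-410-5p: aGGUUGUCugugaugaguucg
mmu-miR-410-3p: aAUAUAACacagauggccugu

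The first 3 belong to Meg3 and the others to Mirg, and the 10 have 10 different seeds. Over all 37 mature sequences within the members there were 36 seeds, GGUUGCC being shared by miR-453 and miR-496a-5p of Mirg. In all, 62 other gene models lie within the members, 56 of them small RNA genes, and every one was at 0. Counting did not use strand, and the header sets no option for reads that touch more than 1 gene. A count of 0 for a model inside a member exon is therefore not read as absence. Overlap with another gene model covers 41.51% of the exon bases of Rmst, 11.93% of Miat, 8.287% of Meg3 and 7.318% of Malat1. The level of Rmst is uncertain for this reason, and that of the others less so.

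Malat1 had the highest mean CPM of the members in dopamine libraries, and Meg3 in serotonin libraries. Malat1 stood at 440.9 and 2557 CPM in datL, 929.9 and 2863 CPM in datM, 500.7 CPM in Lateral, 1409 CPM in Medial, and 89.62 and 132.4 CPM in serotonin. Every dopamine library lay above both serotonin libraries, the lowest of them 3.331 times the higher serotonin value. The dopamine mean was 1450 ± 1040 CPM (SD, n = 6) and the serotonin mean 111 ± 30.22 CPM (SD, n = 2), a ratio of 13.07. In lane 8 alone the ratio was 8.604. In these bulk libraries, fewer cells of a type and less RNA per cell cannot be told apart.

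Meg3 was below Malat1 in the 4 October libraries and above it in the 4 lane 8 libraries. It stood at 317 and 828.5 CPM in datL, 267 and 941.1 CPM in datM, 617.8 CPM in Lateral, 1591 CPM in Medial, and 106 and 146.1 CPM in serotonin. The groups did not overlap, and the highest values were Medial and the second replicates of datM and datL. The dopamine mean was 760.4 ± 487.3 CPM (SD, n = 6) against 126.1 ± 28.35 CPM (SD, n = 2), a ratio of 6.03 over all libraries and 8.758 in lane 8.

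Snhg11 was the other member with no overlap. Its levels were 292.8 and 702.1 CPM in datL, 203 and 381.1 CPM in datM, 425.9 CPM in Lateral, 663.3 CPM in Medial, and 81.37 and 115.9 CPM in serotonin. The dopamine mean of 444.7 ± 200 CPM (SD, n = 6) was 4.508 times the serotonin mean of 98.65 ± 24.43 CPM (SD, n = 2). It also varied least among the dopamine libraries, with an SD of 0.69 on the log2(CPM + 1) scale, where the median over 10381 genes with a mean of at least 5 CPM was 1.53 and Malat1 and Meg3 had 1.15 and 0.98.

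**Figure D1:**
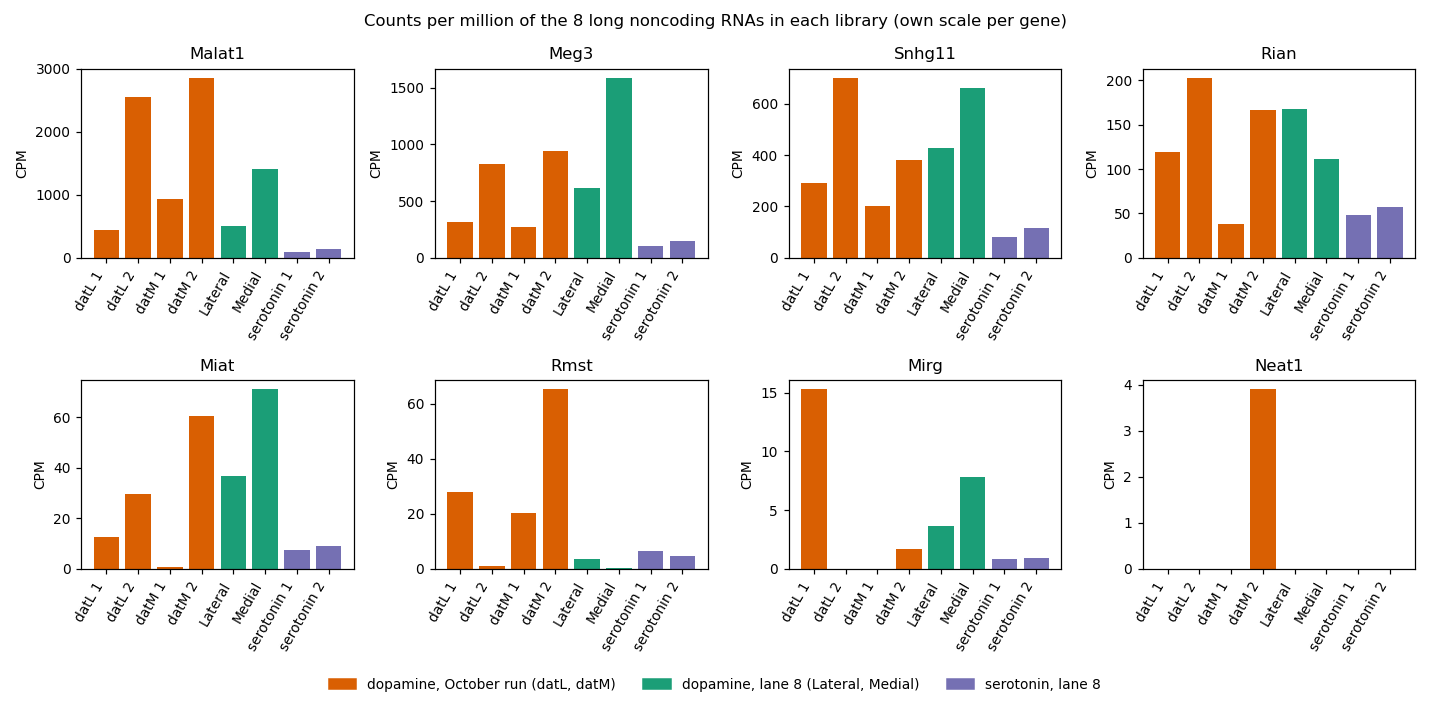
CPM (y axis, own scale from 0 in each panel) of the 8 members in each of the 8 libraries (bars), coloured by neuron type and by October or lane 8 header mark. Malat1, Meg3 and Snhg11 are higher in all 6 dopamine libraries than in both serotonin libraries, while Rmst, Mirg and Neat1 are carried by a few libraries.

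The other 5 members overlapped. Rian was at 118.7 and 203.2 CPM in datL, 38.24 and 166.1 CPM in datM, 167.7 CPM in Lateral, 110.8 CPM in Medial, and 48.29 and 56.9 CPM in serotonin, so that 5 of 6 dopamine libraries were above and datM replicate 1 was below. Miat had the same library out of line: 12.82 and 29.53 CPM in datL, 0.8073 and 60.69 CPM in datM, 36.82 CPM in Lateral, 71.28 CPM in Medial, and 7.499 and 9.192 CPM in serotonin. For datM replicate 1, Miat rested on 22 counts.

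Rmst ran against the rest in lane 8. It was at 27.76 and 1.144 CPM in datL, 20.18 and 65.31 CPM in datM, 3.703 CPM in Lateral, 0.4015 CPM in Medial, and 6.379 and 4.836 CPM in serotonin. Of the dopamine libraries 3 were above both serotonin libraries and 3 were below both. The dopamine to serotonin ratio was 5.1 with datL and datM and 0.366 with Lateral and Medial.

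Mirg and Neat1 were the lowest members and were at 0 in some libraries. Mirg was at 15.33 and 0 CPM in datL, 0 and 1.706 CPM in datM, 3.673 CPM in Lateral, 7.806 CPM in Medial, and 0.8483 and 0.9603 CPM in serotonin. Neat1 had 94 counts in datM replicate 2 (3.91 CPM, exact 95% Poisson interval 3.16 to 4.785) and 0 in the other 7 libraries. A count of 0 allows up to 3 counts, or 0.09032 to 0.1338 CPM depending on the library, so Neat1 was not detectable at this depth outside that library. These limits and intervals cover counting error only.

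The plot of CPM by library shows these 3 patterns side by side. Of the 7 members that passed the filter on low counts, 3 had every dopamine library above both serotonin libraries, and over all 13806 genes tested 3.06% did, while 0 of 7 had every dopamine library below both, as 8.59% of all genes did. Since this contrast chose the members, nothing is read from the difference. All 7 had a positive fitted log2 fold change, with a median of 2.29, where 58.9% of all genes (8137) were positive with a median of 0.26. That background turned with the method: limma-voom had 4456 genes positive with a median of -0.64 and Mirg at -0.05, and the replicate block had 6621 positive with a median of -0.07. Neat1 did not pass the filter. Within lane 8, Malat1, Meg3, Rian, Mirg, Miat and Snhg11 were higher in both Lateral and Medial than in serotonin and Rmst was lower in both, against 24.7% and 24.2% of all genes.

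Per kilobase of exon, the order of mean levels was the same in dopamine and in serotonin libraries: Malat1, Snhg11, Meg3, Rian, Miat, Rmst, Mirg and Neat1. Malat1 had 207.7 ± 149 CPM per kb in dopamine libraries (SD, n = 6) and 15.89 ± 4.327 in serotonin libraries (SD, n = 2), and Snhg11 had 52.19 ± 23.47 and 11.58 ± 2.867. Snhg11 and Meg3 (42.03 ± 26.94 CPM per kb in dopamine libraries) were not separated beyond their spread, being in this order in 4 of 6 dopamine libraries. Miat and Rmst were in this order in 3 of 6 dopamine libraries and 1 of 2 serotonin libraries. Malat1 stood above Snhg11, Meg3 above Rian, and Rian above Miat in all 8 libraries.

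Ratios between members were looked at after the values had been seen, and are given with no test. Meg3 counts over Malat1 counts were 0.719 and 0.324 in datL, 0.2871 and 0.3288 in datM, 1.234 in Lateral, 1.129 in Medial, and 1.183 and 1.104 in serotonin. The 4 lane 8 libraries lie together at both neuron types, and the 4 October libraries lie below them. The ratio moved with the October or lane 8 mark, and the E18 mark is carried only by Lateral and Medial. The part of either was not tested.

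Among the counts of Meg3, Rian and Mirg, Meg3 made up 70.27% and 80.3% in datL, 87.47% and 84.87% in datM, 78.28% in Lateral, 93.06% in Medial, and 68.34% and 71.64% in serotonin. Rian made up nearly all of the rest, from 6.482% in Medial (Wilson 95% interval 6.24 to 6.733) to 31.12% in serotonin replicate 1 (29.79 to 32.47). Mirg was at most 0.5467% except in datL replicate 1, where it was 3.399% (3.066 to 3.768). Its share was 0.4567% to 0.5467% in all 4 lane 8 libraries.

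**Figure D2:**
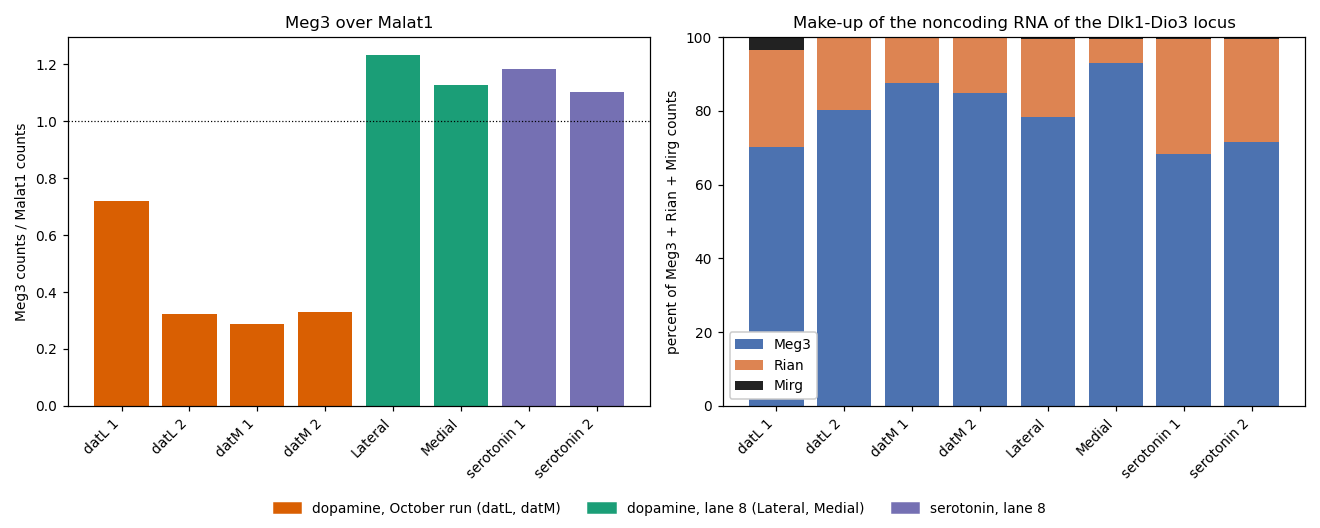
Left, Meg3 counts divided by Malat1 counts (y axis) in each library, with a dotted line at 1; right, the percent of Meg3, Rian and Mirg counts that each gene takes. The left bars are above 1 in the 4 lane 8 libraries and between 0.2871 and 0.719 in the 4 October libraries; on the right Meg3 is the largest share everywhere.

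Between datL and datM none of the 7 members other than Neat1 differed beyond the spread of the libraries. The comparison was fitted over all 8 libraries and 15177 genes. By edgeR's quasi-likelihood test with Benjamini-Hochberg adjustment, 0 of the 7 members other than Neat1 and 0% of all genes passed an adjusted p of 0.05. With so few libraries, 0 calls in this fit or the next do not show that a difference is absent. At an unadjusted p of 0.05, 0 of these 7 passed, where 3.4% of all genes were higher and 3.52% lower, 1050 genes in all. DESeq2 called 1609 genes and limma-voom 243, with no member among them. No member had both datL libraries above or both below both datM libraries, which 11.3% and 13.2% of all genes had. The fitted log2 fold change was above 0 for 4 of these 7 members and for 45.4% of all genes. Malat1 differed by a log2 fold change of -0.27 (SE 0.83) and Meg3 by 0.00 (SE 0.70), both at adjusted p = 1 in edgeR. Snhg11 was at 0.84 (SE 0.59, edgeR adjusted p = 0.695) and Rian at 0.74 (SE 0.81, edgeR adjusted p = 0.917). Without datL replicate 2 Snhg11 was at 0.07, and without datM replicate 1 Rian was at 0.04. Miat was at -0.45 (SE 1.79), Rmst at -1.46 (SE 1.91) and Mirg at 3.28 (SE 3.62), with edgeR adjusted p = 1, 0.958 and 0.92. Neat1 passed the filter only through its 94 counts in datM replicate 2, so its fold and test are not given. The replicates of 1 group differed more than the groups: Malat1 spanned 440.9 to 2557 CPM within datL and 929.9 to 2863 CPM within datM.

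Lateral and Medial were next set against datL and datM, a comparison in which the October or lane 8 mark and the E18 mark move with the groups. With edgeR, 0 of 7 members and 0% of 12818 genes passed an adjusted p of 0.05, and 0 of 7 passed an unadjusted p of 0.05, which 3.81% of all genes did upward and 0.663% downward, 574 genes in all. DESeq2 called 38 genes and limma-voom 0, with no member among the former. Malat1 had a log2 fold change of -1.03 (SE 0.75), Meg3 of 0.71 (SE 0.60) and Rmst of -3.88 (SE 2.30), each with edgeR adjusted p = 0.9996, where the median over all genes was -0.11. Snhg11 (0.27, SE 0.55), Miat (0.88, SE 1.44), Mirg (0.17, SE 3.12) and Rian (-0.07, SE 0.71) had the same edgeR adjusted p. Of the 7 members 4 had a log2 fold change above 0, as 46.2% of all genes had. No member's groups were without overlap, against 12.5% of all genes upward and 2.77% downward.

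**Figure D3:**
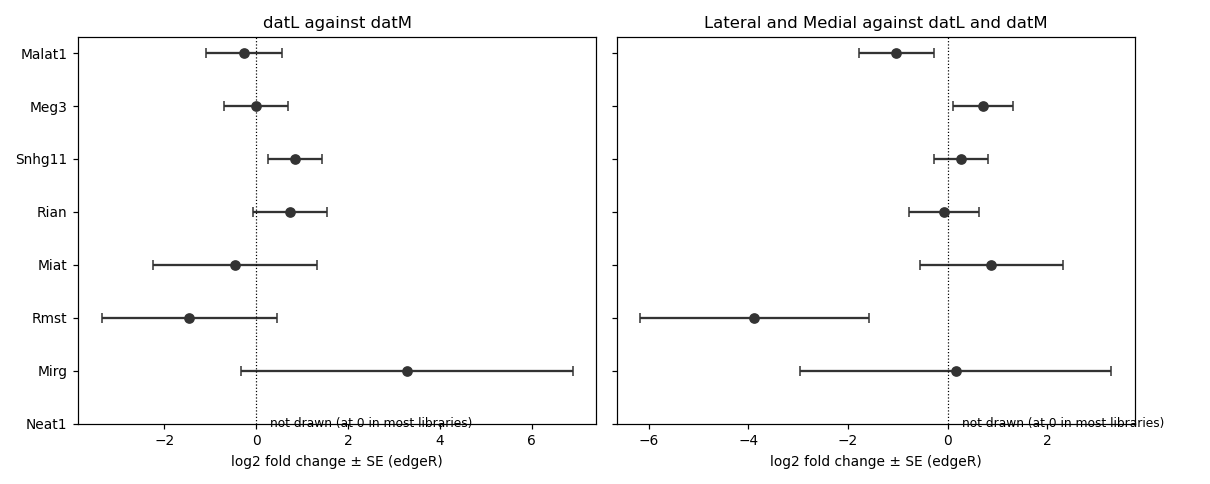
Log2 fold change (x axis, point) with its standard error (bar) from edgeR for datL against datM (left) and for Lateral and Medial against datL and datM (right). Neat1 is not drawn because it is at 0 in most libraries; none of the 7 members drawn passed the test in either comparison.

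Lateral and Medial are 1 library each, so their difference has no replicate check. The Medial to Lateral ratio of CPM was 2.815 for Malat1 (exact 95% interval for counting error 2.762 to 2.868), 2.575 for Meg3 (2.531 to 2.62), and 2.125 for Mirg (1.677 to 2.701). Miat was at 1.936 (1.796 to 2.087) and Snhg11 at 1.557 (1.522 to 1.594). Rian went the other way at 0.6605 (0.6298 to 0.6927), although it shares its locus with Meg3. Rmst was at 0.1084 (0.04843 to 0.2126), from 123 counts in Lateral and 9 in Medial. Over 11867 genes the median ratio was 1.049, with 24.2% more than 2-fold higher in Medial and 25% more than 2-fold lower. Of 7 members 3 were more than 2-fold higher and 1 more than 2-fold lower, sizes that many genes had. With TMM factors Mirg was at 1.926, which leaves 2 of 7 more than 2-fold higher.

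The members were also set within the whole class of long noncoding genes in these tables (lincRNA, antisense and processed transcript types, which leaves out Snhg11). The largest in every library was Gm42418 on chromosome 17, a gene model known to collect ribosomal RNA reads, with 28.64% to 88.35% of the counts of the class. It was at 3085 to 21290 CPM in dopamine libraries and at 32398 and 20574 CPM in serotonin libraries, and its part in the class totals is given beside them for that reason. By level within the class, Malat1 had rank 2 in the 4 October libraries, 4 in Lateral, 3 in Medial, and 8 and 7 in serotonin. Meg3 had rank 3 in both datL libraries, 4 and 3 in datM, 2 in both Lateral and Medial, and 6 in both serotonin libraries. Without Gm42418, the 7 members made up 22.17% to 57.48% of the counts of the class in dopamine libraries and 6.052% and 9.414% in serotonin libraries. Malat1 and Meg3 are among the 7 and were known to be higher in dopamine libraries, so nothing is read from this difference.

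**Figure D4:**
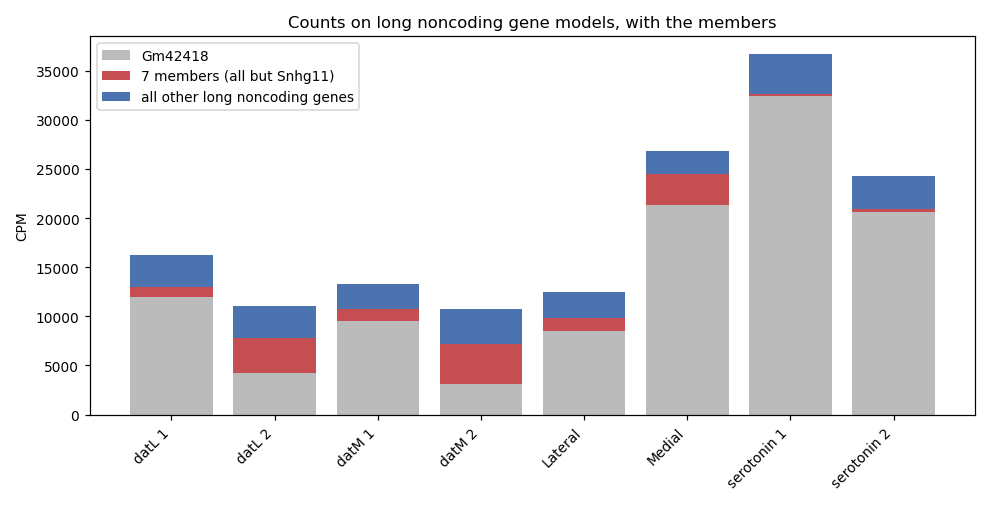
CPM on long noncoding gene models (y axis) in each library, split into Gm42418, the 7 members of that class and all others (stacked bars from 0). The members' segment is larger in every dopamine library than in both serotonin libraries, and Gm42418 is the largest single gene in each bar.

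Genes that go with the members were taken from lists, and their dopamine to serotonin contrast was fitted in edgeR over all 13806 genes. The lists were chosen with earlier results of these data known, so the counts within them are a description. No gene of any list, and no gene at all (0%), passed an adjusted p of 0.05. The transporter genes that mark the neuron types did not pass either. Slc6a3 had an edgeR adjusted p of 0.2289 and Slc6a4 of 0.3275. A gene that is not called here may therefore still differ. Over all genes 2.8% were higher and 1.9% lower at an unadjusted p of 0.05, 648 genes in all, and DESeq2 called 124 and limma-voom 14. Of 6 protein-coding genes listed for the Dlk1-Dio3 locus and its surroundings, 2 were positive, with a median log2 fold change of -0.44. None passed even the unadjusted threshold. The 2 positive genes were Wars (0.88) and Begain (0.32). Begain lies outside the span from Dlk1 to Dio3, at chr12:109032187-109068217, where Dlk1 starts at 109452823. Within that span Dlk1 (-1.69), Rtl1 (-0.45) and Dio3 (-4.84) were all negative. Wars, the tryptophanyl-tRNA synthetase, was at 127.4 to 275.6 CPM in dopamine libraries and at 125.2 and 113.2 CPM in serotonin libraries, with no overlap. Dlk1, a membrane ligand of the Notch family made from the paternal chromosome, was at 0 to 21.16 CPM in dopamine libraries and at 30.03 and 38.1 CPM in serotonin libraries. Dio3, which inactivates thyroid hormone, was at 1.323 and 5.659 CPM in serotonin and at 0 in 5 of 6 dopamine libraries.

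Of 24 other imprinted genes tested, 13 were positive with a median of 0.11, and 0 were higher and 5 lower at an unadjusted p of 0.05. The first by p was Nap1l5, a nucleosome assembly protein relative, at 125 ± 99.89 CPM in dopamine libraries (SD, n = 6) and 525.3 ± 44.57 CPM in serotonin libraries (SD, n = 2), with a log2 fold change of -2.01 (edgeR adjusted p = 0.415). Ndn, which restrains growth in neurons, was at 834.7 ± 409 and 2004 ± 102.8 CPM (edgeR adjusted p = 0.94). Of 10 other small nucleolar RNA host genes 5 were positive with a median of 0.04, and none passed the unadjusted threshold. Gas5 was at 135.4 ± 69 CPM in dopamine libraries and 95.66 ± 7.962 CPM in serotonin libraries, with overlap. Of 16 other long noncoding RNAs 11 were positive, with a median of 0.87, and none passed the unadjusted threshold.

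All 15 paraspeckle and nuclear speckle protein genes were positive, with a median of 0.98, and 4 passed the unadjusted threshold: Son, Hnrnpk, Srrm2 and Pspc1. Over all genes 58.9% were positive in edgeR and 2.8% were higher at that threshold. With limma-voom 4456 of 13806 genes were positive. Since the list was chosen with earlier results known, nothing is read from these counts. Son, a speckle scaffold protein, was at 498.8 ± 177 CPM in dopamine libraries (SD, n = 6) and 212.1 ± 85.33 CPM in serotonin libraries (SD, n = 2), with a log2 fold change of 1.37 (edgeR adjusted p = 0.80). Their summed level was 2670 to 4950 CPM in dopamine and 1733 and 2206 CPM in serotonin libraries. Qk, an RNA-binding protein, was at 235.8 ± 97.75 and 88.63 ± 30.71 CPM (edgeR adjusted p = 0.792).

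Summed markers of some other cells were also higher in all dopamine libraries than in both serotonin libraries, like Malat1, Meg3 and Snhg11. Radial glia and astrocyte markers summed to 1988 to 4929 CPM in dopamine libraries and 902 to 1199 CPM in serotonin libraries. Of these, 9 of 9 tested genes were positive and 4 passed the unadjusted threshold, but only 3 had every dopamine library above both serotonin libraries. Slc1a3 (6.081 to 237.2 CPM against 62.37 and 72.88) and Vim (187 to 1404.5 CPM against 296.2 and 427.7) overlapped. The sums leaned on Fabp7, at 1407 of 1988 CPM in datL replicate 2 and 529.7 of 1199 CPM in serotonin replicate 2. Fabp7, a fatty acid binding protein of radial glia, was at 1082 to 2974 CPM against 451.2 and 529.7 CPM, while Gfap was under 1 CPM in 5 of 6 dopamine libraries. Red blood cell markers summed to 102.4 to 753.8 CPM against 31.49 to 52.54 CPM, with 7 of 7 positive and 4 past the unadjusted threshold. Of these 7, 4 had every dopamine library above both serotonin libraries, and 2 were lower in both Lateral and Medial than in serotonin. Hbb-y (0 to 135 CPM against 4.343 and 9.672) and Hba-x (0 to 35.6 CPM against 1.086 and 2.126) overlapped. Oligodendrocyte lineage markers summed to 36.97 to 418.4 CPM against 21.45 to 36.46 CPM, a narrow margin at the lowest dopamine library. All 7 tested were positive, but 0 passed the unadjusted threshold and 0 had every dopamine library above both serotonin libraries. Olig2 was below both serotonin libraries in 4 of 6 dopamine libraries and above both in 2. Microglial markers summed to 0 to 14.06 CPM in dopamine libraries and 0.0343 and 1.9 CPM in serotonin libraries. The highest was Aif1, at 13.47 CPM in datM replicate 1, and 2 of the 6, Csf1r and P2ry12, were at 0 in all 8 libraries. General neuron markers overlapped, at 15628 to 22905 CPM against 21055 to 21634 CPM. The part of these cells in the members' levels was not tested.

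Across the 8 libraries the genes whose log2(CPM + 1) was most like a member's are given as a description, since the libraries share neuron type, header mark and depth. For Malat1 they were Apc (r = 0.97, n = 8), Ccnd2 and Washc2, out of 10389 genes. Meg3 was most like Pfkp (r = 0.98, n = 8), Cse1l and Ndrg2, and Snhg11 most like Cse1l (r = 0.98, n = 8), Etv1 and Hjurp. For Rian they were Grm3, Mir124a-1hg and Lhfpl2, for Miat Akt2, Asrgl1 and Eea1, for Mirg Nkd1, Wdr82 and Ube2o, and for Rmst Gstk1, Scarb2 and Catsperd. Neat1 was matched by Ctse, Cp and Tek, a likeness carried by datM replicate 2 alone. Among members the closest pair was Meg3 and Snhg11 (r = 0.95, n = 8), ahead of Malat1 and Meg3 (r = 0.87) and Malat1 and Snhg11 (r = 0.86). Meg3 and Rian, of the same locus, had r = 0.76, and Rmst was between -0.30 and 0.05 with every other member except Neat1 (0.63).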

How the data were processed

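Each library came with its own table of raw read counts per gene, deposited by the authors and not normalized. Per the file headers these counts were made with featureCounts v1.4.3-p1 without strand on GENCODE M2, and per the submitters' processing notes reads were aligned to mm10 with STAR. Of 38924 genes, 37607 received a symbol by gene ID from GENCODE M21. Of the members, 7 matched by ID and Rmst by identical start, end and strand. Counts were scaled to CPM by the library total (22417739 to 33216710), and to CPM per kb of exon to compare genes. edgeR 4.0.16 in R 4.3.3 (quasi-likelihood test, TMM, filterByExpr, Benjamini-Hochberg) was fitted on all genes. It was also run on simulated data, with the outcome not given here. DESeq2 1.42.0 and limma 3.58.1 (voom) were alternatives. The members and gene lists were chosen with earlier results of these data known. Named genes were all members, up to 4 genes per other list and the 3 genes most like each member by Pearson r. The list genes were taken by smallest unadjusted p in the dopamine to serotonin fit. Rtl1, Begain, Gm42418 and cell markers outside this rule were named after their values were seen. The 13 mitochondrial protein genes were at 0 in every library.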

Additional observations from a re-analysis of the deposited data

Results flagged for a closer look

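Neat1 in datM replicate 2 stood apart from the other dopamine libraries, at 3.91 CPM (94 counts) where the other 5 were at 0. With 5 values at 0, any count above 0 would be marked by the gap rule used (Dixon's), so its chance rate of 1 in 20 does not apply and the value is given only as a description. Of the 11 sets of 6 values looked at in this way, this was the 1 marked.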

How the results depend on the processing

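The 0 calls of edgeR depended on the tool. For dopamine against serotonin, DESeq2 called 124 genes (116 higher, 8 lower), limma-voom 14 (0 higher, 14 lower), a filter of 5 CPM in 2 libraries 3, Lateral and Medial against serotonin 3, and datL and datM against serotonin 2. For datL against datM, DESeq2 called 1609 and limma-voom 243, and for Lateral and Medial against datL and datM, DESeq2 called 38. Leaving out each library in turn gave 0 to 1 calls (1 without datL replicate 1), 0 to 6 (6 without either serotonin library) and 0. With the replicate block, dopamine against serotonin gave 0 calls (762 at an unadjusted p of 0.05) and datL against datM 0 (347, against 506 in the same 4 libraries without it); same-numbered deviations of datL and datM correlated at 0.10, and the labels name no shared batch. None of the 7 members other than Neat1 passed the threshold between dopamine groups in any fit. The sign was not fixed for datL against datM: leaving out a library gave -2.03 to 0.73 for Malat1 (0.49 without datL replicate 1, 0.73 without datM replicate 2), -0.86 to 1.15 for Meg3 (-0.86 without datL replicate 2, -0.63 without datM replicate 1), -7.59 to 10.85 for Mirg (-7.59 without datL replicate 1) and -1.44 to 4.75 for Miat (0.01 without datL replicate 1, 4.75 without datM replicate 2). Leaving out a library kept the sign but moved Snhg11 over 0.07 to 1.34 (lowest without datL replicate 2, highest without datM replicate 2), Rian over 0.04 to 2.12 (without datM replicate 1 and replicate 2) and Rmst over -5.15 to -0.44 (without datL replicate 1 and datM replicate 2). Meg3 was at -0.0399 with RLE factors and with DESeq2, -0.0055 with no filter, and -0.51 with datL and Lateral against datM and Medial; Miat was at 1.67 with limma-voom and 1.54 with the replicate block. For Lateral and Medial against datL and datM, Rian was at -0.51 without Lateral, 0.18 with limma-voom, 0.20 without datL replicate 2 and 0.26 without Medial, Meg3 at -0.0048 without Medial (1.19 without Lateral), and Mirg at -0.25 without datL replicate 2, -0.25 without datM replicate 1, -0.10 without datM replicate 2 and -0.35 without Medial (3.19 without datL replicate 1, 3.86 with limma-voom). The cause of these shifts was not tested. In dopamine against serotonin, Malat1, Meg3, Rian, Miat and Snhg11 were positive in all 16 alternatives, Mirg was at -0.05 with limma-voom and Rmst at -1.48 with Lateral and Medial only. All 60 rescaled mean levels, the total without Gm42418 among them (added after seeing the data), stayed within 1 SD; TMM lowered the Medial to Lateral ratio to 2.551 for Malat1, 2.333 for Meg3, 1.926 for Mirg, 1.754 for Miat, 1.411 for Snhg11 and 0.5986 for Rian.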
